A study of Mus musculus with 8 samples.

Results

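Immediate early and AP-1 genes were examined in thymic epithelial cells (TECs) of the embryonic mouse. The 10 genes, Fos, Fosb, Jun, Junb, Jund, Egr1, Atf3, Klf4, Klf6 and Ier2, were picked by their symbols out of the 55450 genes in the table, and all 10 were detected in every library and passed the filter on low counts. The RNA-sequencing comprised 8 libraries of TECs sorted at embryonic day 17 (E17) as CD45-EpCAM+ cells, CD45 being the marker of blood cells and EpCAM that of epithelial cells. Populations sorted were CCL21+RANK-, with 3 libraries, CCL21-RANK+, with 3, and CCL21-RANK-, with 2, and the comparison asked how the transcriptomes of the CCL21-expressing and the RANK-expressing cells of the medulla differ. All 3 populations came from embryos that carried both a tdTomato reporter knocked into Ccl21a, which encodes a chemokine that attracts thymocytes, and a Venus transgene that reports Tnfrsf11a, the gene for RANK, so that a population was defined by reporter fluorescence and not by the chemokine or receptor protein. The embryos were heterozygous for the knock-in, with 1 unmodified Ccl21a allele. The methods describe digestion of the thymus with Liberase, an enzyme mixture, before sorting, and undigested tissue was not analysed here. The study describes its replicates as biological, and no source used here says whether libraries with the same number came from the same embryos.

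Immediate early genes are transcribed within minutes of a stimulus without new protein synthesis, through MAP kinases and factors such as SRF, Elk1 and CREB, and their mRNAs are short-lived. AP-1 is a family of dimers formed by Fos, Jun, Atf and Batf proteins on a common DNA motif. RANK signals through TRAF6 to NF-kB and to MAP kinases, and in osteoclasts Fos is needed downstream of RANK. Egr1 and the Krüppel-like factors Klf4 and Klf6 are zinc finger transcription factors, and Ier2 is a nuclear protein induced by growth factors.

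The libraries held between 42751858 and 71625319 counts. The sort was visible in the reporter genes' own transcripts, given as RPKM, which is counts scaled to the length of a gene's exons and to the total of the library. Ccl21a was at 561, 346 and 305 RPKM in CCL21+RANK- cells, 152, 95.9 and 78.2 RPKM in CCL21-RANK+ cells and 6.89 and 8.88 RPKM in CCL21-RANK- cells, so that the CCL21-RANK+ cells were not free of it. Tnfrsf11a was at 8.78, 9.44 and 10.3 RPKM in CCL21+RANK- cells, 111, 93.1 and 107 RPKM in CCL21-RANK+ cells and 2.62 and 2.26 RPKM in CCL21-RANK- cells. Of the epithelial genes, Epcam stood between 49.5 and 156 RPKM and Foxn1, the transcription factor of thymic epithelium, between 50.7 and 105 RPKM in all 8 libraries, whereas Ptprc, which encodes CD45, did not exceed 0.576 RPKM. Within the CCL21+RANK- population, all 10 genes studied here were below the mean of their population in replicate 3 and above it in replicate 1. Some results are also given without replicate 3. That choice was made on the values of these genes and by itself raises their CCL21+RANK- means.

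In the GRCm38 annotation, Fos spans chr12:85473890-85477273 on the plus strand, Fosb chr7:19302696-19310051 on the minus strand, Jun chr4:95049034-95052222 on the minus strand, Klf4 chr4:55527143-55532466 on the minus strand and Klf6 chr13:5861482-5870394 on the plus strand. Atf3 spans chr1:191170296-191218039 on the minus strand, Junb chr8:84974484-84978718 on the minus strand, Jund chr8:70698949-70700616 on the plus strand and Ier2 chr8:84661331-84662852 on the minus strand. RefSeq promoters (GRCm38.p6) were found for 8 of the 10 genes, not for Egr1 and Ier2, and the 250 bases before the start were searched on both strands for 6 short motifs. Windows around 4 matches are printed here, because Jun, Klf4 and Klf6 are the genes that passed the thresholds in more than 1 comparison and Fosb shares its match with Klf4. They are read 5′ to 3′ on the strand of the gene, with the match in capitals.
Jun, chr4:95052243-95052291, minus strand: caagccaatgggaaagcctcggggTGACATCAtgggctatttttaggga
Klf6, chr13:5861346-5861401, plus strand: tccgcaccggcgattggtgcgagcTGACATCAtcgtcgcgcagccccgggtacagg
Klf4, chr4:55532637-55532693, minus strand: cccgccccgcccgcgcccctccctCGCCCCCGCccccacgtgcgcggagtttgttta
Fosb, chr7:19310066-19310119, minus strand: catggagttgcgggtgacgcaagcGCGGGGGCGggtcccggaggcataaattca

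The capitals in Jun and Klf6 are TGACATCA, the letters of the Jun and Atf2 binding site described in the Jun promoter. They began 45 bases before the start in Jun and 119 bases before it in Klf6, and 2.93% of 32851 promoters held them. The capitals in Fosb are the Egr1 motif, searched as GCGGGGGCG or GCGTGGGCG, and those in Klf4 are its reverse complement CGCCCCCGC, so that the Klf4 match lies on the opposite strand. The match began 194 bases before the start in Klf4 and 50 bases before it in Fosb and was held by 3.06% of the promoters. The letters TATAAA were found in Fos alone of the 8, and in 12.4% of all promoters. The full cyclic AMP response element TGACGTCA, the AP-1 motif TGACTCA and the CArG box of SRF had no match in the 8 windows, and stood in 1.55%, 4.46% and 1.47% of all promoters, respectively. A match describes the letters only.

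The first question was how the genes differed between the 2 reporter-positive populations. A gene was called at an adjusted p-value under 0.05 from edgeR's quasi-likelihood test, a fold change over 1.5 and a mean of over 1 RPKM in the higher group. In CCL21-RANK+ cells compared with CCL21+RANK- cells, 1 of the 10 genes was called higher, Klf4, and 1 lower, Jun, where 30.9% of the 21451 genes tested were called, 15.4% in each direction. The median log2 fold change of the 10 genes was -0.57, beside 0.11 over all genes tested. With 1 of 10 called in each direction, the 10 genes were near that background. Over the 12330 genes with a mean over 1 RPKM, libraries of these populations with the same number had correlated deviations (0.234, 0.140 and 0.175). Those with different numbers had correlations of -0.177 to 0.0265. However, CCL21+RANK- replicate 2 and CCL21-RANK- replicate 1, of different numbers, had 0.192, so that values of this size do not establish pairing. Values from a fit of these 6 libraries blocked by replicate number, chosen after seeing the data, are given wherever they change a call. That fit called 6 of the 10 genes, Klf4 and Klf6 higher and Jun, Fos, Fosb and Ier2 lower, where it called 33.9% of the 19471 genes tested, 17.1% higher and 16.8% lower. The sets of libraries did not overlap, in CPM after TMM scaling, for Jun and Klf4 alone, whereas 61.2% of all genes tested had such separation, 33.7% with higher and 27.5% with lower values in CCL21-RANK+ cells.

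**Figure D1:**
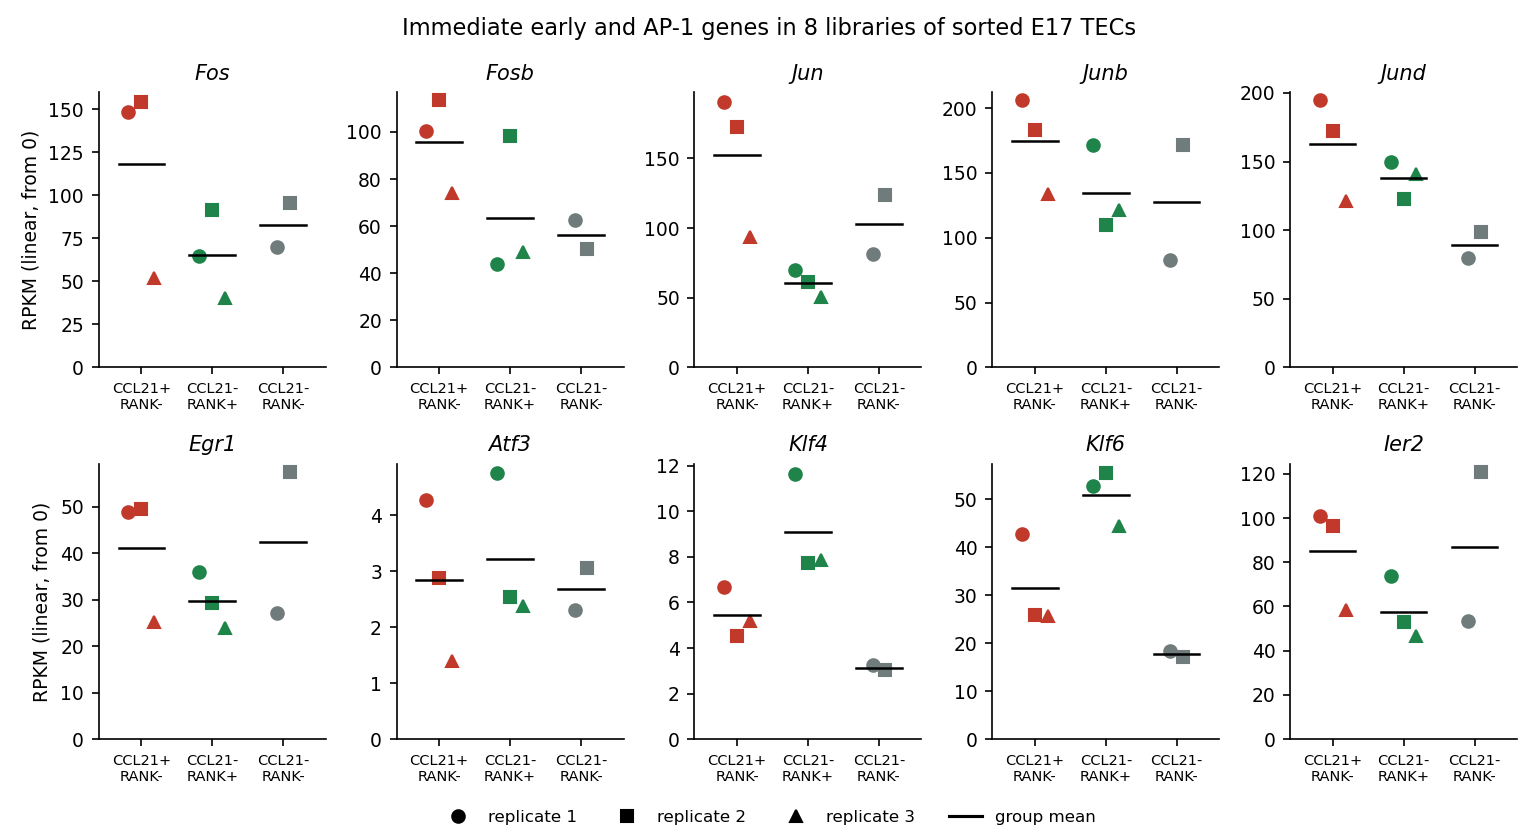
RPKM of the 10 genes (linear axes from 0, 1 panel per gene) in each library, with the population on the horizontal axis, the replicate number as the symbol and a line at the group mean. Jun was lowest in all 3 CCL21-RANK+ libraries, Klf4 was highest in them, and replicate 3 of CCL21+RANK- (triangle) lay below replicates 1 and 2 for 9 of the 10 genes, Klf4 excepted.

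Jun encodes c-Jun, the main Jun partner of Fos in AP-1 and a substrate of the kinase JNK. Jun was at 191, 172 and 93.2 RPKM in CCL21+RANK- cells, 69.7, 61.3 and 50.3 RPKM in CCL21-RANK+ cells and 81.4 and 124 RPKM in CCL21-RANK- cells. All 3 CCL21-RANK+ libraries were below every other library. Jun was 2.78-fold lower in CCL21-RANK+ cells than CCL21+RANK- cells, with a log2 fold change of -1.48 ± 0.28 (SE, 3 against 3 libraries, edgeR adjusted p = 0.00149). It was also 1.83-fold lower than in CCL21-RANK- cells (log2 fold change -0.87 ± 0.30, edgeR adjusted p = 0.0343). Between CCL21+RANK- and CCL21-RANK- cells the values overlapped and the log2 fold change of 0.60 ± 0.31 did not pass (edgeR adjusted p = 0.263). Leaving out each library, this value ran from 0.39 to 0.89 and was called only without CCL21+RANK- replicate 3 (0.89, edgeR adjusted p = 0.0227). The lower level against CCL21+RANK- was called in all 17 alternatives, with log2 fold changes from -1.76 to -1.29, and the lower level against CCL21-RANK- was lost in 6 of the 16 that keep the thresholds, DESeq2 size factors and upper-quartile scaling among them, and also at a fold over 2. Jun shares 232 exon bases with the antisense gene Junos, which had at most 230 counts in any library.

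Junb and Jund encode the other Jun proteins, of which JunB is itself an immediate early gene product and JunD is made more constantly. Junb was at 206, 183 and 134 RPKM in CCL21+RANK- cells, 172, 110.0 and 121 RPKM in CCL21-RANK+ cells and 83.0 and 172 RPKM in CCL21-RANK- cells. These ranges overlapped, and Junb passed in no comparison in the unblocked fit of all 8 libraries, with log2 fold changes of -0.52, 0.49 and -0.03 in the 3 comparisons. Jund was at 195, 172 and 122 RPKM in CCL21+RANK- cells, 149.9, 123 and 141 RPKM in CCL21-RANK+ cells and 79.6 and 98.5 RPKM in CCL21-RANK- cells. The CCL21-RANK- libraries were below all others, while the other populations overlapped. Jund was 1.86-fold higher in CCL21+RANK- cells than CCL21-RANK- cells (log2 fold change 0.89 ± 0.21, edgeR adjusted p = 0.0247). In CCL21-RANK+ cells against CCL21-RANK- cells its log2 fold change was 0.52 ± 0.21 (edgeR adjusted p = 0.0646), which did not pass, and it was called higher in 5 of 16 alternatives, with DESeq2 size factors and upper-quartile scaling among them. The counting's use of strand is not given, and Junb shares 173 exon bases with Prdx2 on the opposite strand, which had up to 22379 counts, while Jund shares 877 with the antisense gene Gm11175, which had at most 121 counts.

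The makeup of the Jun family was compared per length. Jun made up 32.2%, 32.7% and 26.7% of the summed RPKM of Jun, Junb and Jund in CCL21+RANK- cells, 17.8%, 20.8% and 16.1% in CCL21-RANK+ cells and 33.4% and 31.4% in CCL21-RANK- cells. The share was lower in each CCL21-RANK+ library than in any other library. An exact permutation test gave p = 0.1, 2-sided, against CCL21+RANK-, the smallest that 3 against 3 libraries allow, and p = 0.2 against CCL21-RANK-, the smallest that 3 against 2 allow, so that neither can pass 0.05. Jund made up 38.3%, 41.8% and 45.1% of the family in CCL21-RANK+ cells, 32.9%, 32.7% and 34.9% in CCL21+RANK- cells and 32.6% and 25.0% in CCL21-RANK- cells.

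**Figure D2:**
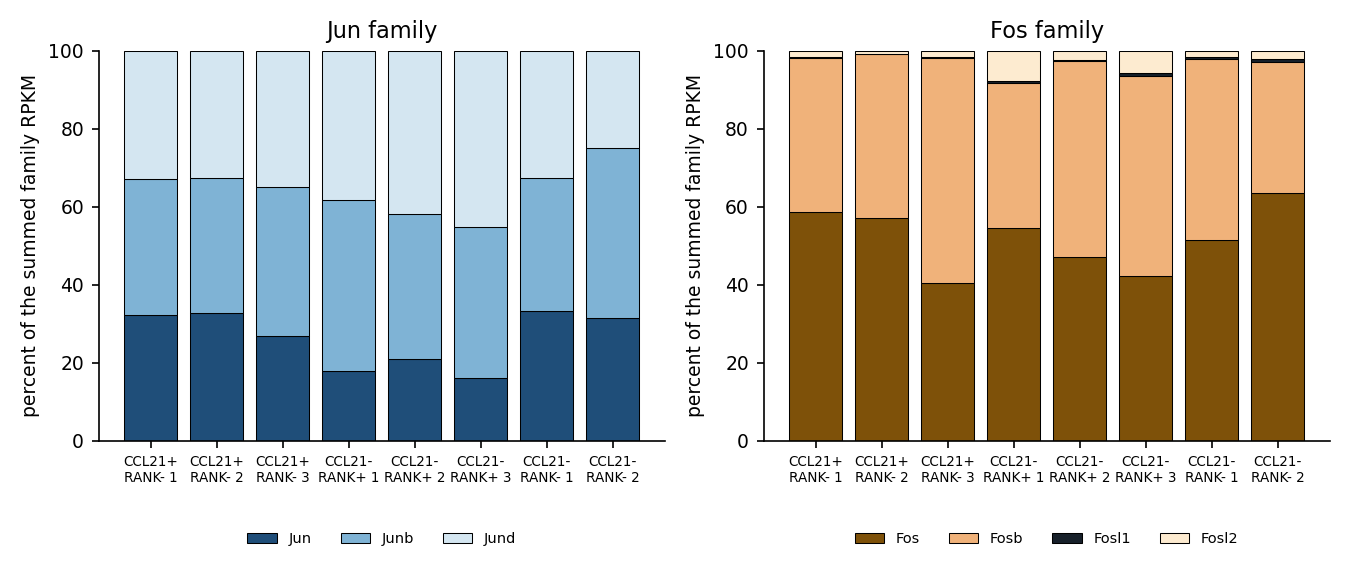
Percent of the summed RPKM of the Jun family (left) and the Fos family (right) taken by each gene, 1 bar per library. The dark Jun segment was 16.1% to 20.8% of the bar in the CCL21-RANK+ libraries and 26.7% to 33.4% in the others, while Fosl1 and Fosl2 together were the smallest part of the Fos family bar in every library.

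Fos and Fosb encode the Fos proteins that pair with Jun, and neither passed in any comparison in the unblocked fit of all 8 libraries with the default filter. With no filter on low counts, and without CCL21-RANK+ replicate 2, both were called lower in CCL21-RANK+ cells than CCL21+RANK- cells. Fos was at 149, 154 and 52.0 RPKM in CCL21+RANK- cells, 64.9, 91.4 and 40.1 RPKM in CCL21-RANK+ cells and 69.7 and 95.6 RPKM in CCL21-RANK- cells. Replicate 3 of CCL21+RANK- was below 4 of the 5 libraries of the other populations, so that the groups overlapped. In CCL21-RANK+ cells against CCL21+RANK- cells the log2 fold change of Fos was -0.998 ± 0.42 (edgeR adjusted p = 0.0719), and its 95% interval ran from -1.83 to -0.17. Blocked by replicate number, the lower level of Fos was called (log2 fold change -0.89, edgeR adjusted p = 0.00689). Against CCL21-RANK- cells the log2 fold change of Fos was 0.56 ± 0.48 in CCL21+RANK- cells and -0.44 ± 0.47 in CCL21-RANK+ cells (edgeR adjusted p = 0.526 and 0.474). Fosb was at 100.3, 113 and 73.9 RPKM in CCL21+RANK- cells, 44.1, 98.1 and 48.8 RPKM in CCL21-RANK+ cells and 62.6 and 50.3 RPKM in CCL21-RANK- cells. Its log2 fold change in CCL21-RANK+ cells against CCL21+RANK- cells was -0.71 ± 0.33 (edgeR adjusted p = 0.1), and with the block it was -0.77 and called (edgeR adjusted p = 0.0147). Both CCL21-RANK- libraries were below the 3 CCL21+RANK- libraries, yet the log2 fold change of 0.77 ± 0.38 did not pass (edgeR adjusted p = 0.244). The ratio of Fosb to Fos RPKM was 0.675, 0.736 and 1.42 in CCL21+RANK- cells, 0.679, 1.07 and 1.22 in CCL21-RANK+ cells and 0.898 and 0.526 in CCL21-RANK- cells, without separating the populations.

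Egr1, Ier2 and Atf3 passed in no comparison in the same unblocked fit. Egr1 was at 48.9, 49.4 and 25.3 RPKM in CCL21+RANK- cells, 36.0, 29.2 and 23.9 RPKM in CCL21-RANK+ cells and 27.2 and 57.5 RPKM in CCL21-RANK- cells, where replicate 1 was the third lowest and replicate 2 the highest of all libraries. Its log2 fold change in CCL21-RANK+ cells against CCL21+RANK- cells was -0.62 ± 0.31 (edgeR adjusted p = 0.124). In CCL21-RANK+ cells against CCL21-RANK- cells it was -0.61 ± 0.35 (edgeR adjusted p = 0.173), and it ran from -1.01 to -0.069 leaving out each library. Ier2 was at 101, 96.3 and 58.4 RPKM in CCL21+RANK- cells, 73.6, 53.1 and 46.5 RPKM in CCL21-RANK+ cells and 53.4 and 121 RPKM in CCL21-RANK- cells. Replicates 1 and 2 of CCL21-RANK- again held the third lowest and the highest value, and its log2 fold change in CCL21-RANK+ cells against CCL21+RANK- cells was -0.71 ± 0.30 (edgeR adjusted p = 0.071). The block gave -0.66 for Ier2, which was called (edgeR adjusted p = 0.00730), as it was with no filter, in an unblocked fit of the 6 libraries compared, and without CCL21+RANK- replicate 3 or either CCL21-RANK- library. Against CCL21-RANK- cells the CCL21-RANK+ value of Ier2 was -0.69 ± 0.33 on the log2 scale (edgeR adjusted p = 0.11), and it was called lower with no filter and without CCL21-RANK- replicate 1. Atf3, a stress-induced Atf protein that can repress its targets, had the lowest mean of the 10 genes in each population and was at 4.27, 2.89 and 1.39 RPKM in CCL21+RANK- cells, 4.76, 2.54 and 2.38 RPKM in CCL21-RANK+ cells and 2.31 and 3.06 RPKM in CCL21-RANK- cells. Its log2 fold changes lay between 0.02 and 0.14 in the 3 comparisons, with a 95% interval from -0.77 to 0.82 in the first.

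Klf4 and Klf6 were ordered alike, with CCL21-RANK+ above CCL21+RANK- and CCL21-RANK- lowest. Klf4, a factor of epithelial differentiation and of pluripotency, was at 6.66, 4.52 and 5.21 RPKM in CCL21+RANK- cells, 11.7, 7.74 and 7.87 RPKM in CCL21-RANK+ cells and 3.23 and 3.04 RPKM in CCL21-RANK- cells. No pair of populations overlapped. It was called in all 3 comparisons, 1.52-fold higher in CCL21-RANK+ cells than CCL21+RANK- cells (log2 fold change 0.61 ± 0.18, edgeR adjusted p = 0.018), 1.74-fold higher in CCL21+RANK- cells than CCL21-RANK- cells (0.80 ± 0.21, adjusted p = 0.0379) and 2.65-fold higher in CCL21-RANK+ cells than CCL21-RANK- cells (1.40 ± 0.21, adjusted p = 0.000496). Klf6, a widely made factor that activates growth-control genes, was at 42.6, 25.9 and 25.7 RPKM in CCL21+RANK- cells, 52.8, 55.5 and 44.3 RPKM in CCL21-RANK+ cells and 18.3 and 17.2 RPKM in CCL21-RANK- cells. Its RPKM ranges did not overlap, but after TMM scaling CCL21+RANK- replicate 1 reached into the CCL21-RANK+ range. Klf6 was 2.63-fold higher in CCL21-RANK+ cells than CCL21-RANK- cells (log2 fold change 1.40 ± 0.24, edgeR adjusted p = 0.000962) and 1.77-fold higher in CCL21+RANK- cells than CCL21-RANK- cells (0.82 ± 0.23, adjusted p = 0.0489). Against CCL21+RANK-, its 1.49-fold higher level in CCL21-RANK+ cells had an edgeR adjusted p of 0.0355 and fell just short of the fold threshold of 1.5, and with the block it was called (log2 fold change 0.62, edgeR adjusted p = 0.0173). It was called in 11 of the 17 alternatives that keep the thresholds, among them DESeq2 size factors, upper-quartile scaling and both other filters. The mean ratio of Klf6 to Klf4 RPKM was 5.69 ± 0.735 (SD, n = 3), 5.78 ± 1.32 (SD, n = 3) and 5.67 ± 0.00197 (SD, n = 2) in CCL21+RANK-, CCL21-RANK+ and CCL21-RANK- cells.

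Against CCL21-RANK- cells, 3 of the 10 genes were called higher in CCL21+RANK- cells, Jund, Klf4 and Klf6, and 0 lower, where 8.02% of all genes tested were called, 4.35% higher and 3.66% lower. Libraries did not overlap for these 3 and for Fosb, all higher, beside 44.4% of all genes tested, 20.1% higher and 24.3% lower. The median log2 fold change of the 10 was 0.58, and 0.00 over all genes tested. None of the 3 calls remained without CCL21+RANK- replicate 1, without its replicate 2 or without either CCL21-RANK- library, only that of Jund did without CCL21-RANK+ replicate 3, and that of Klf6 was lost without CCL21-RANK+ replicate 2. In CCL21-RANK+ cells against CCL21-RANK- cells, 2 of the 10 were called higher, Klf4 and Klf6, and 1 lower, Jun, where 29.5% of all genes tested were called, 14.4% higher and 15.1% lower. Libraries did not overlap for these 3 and for Jund, beside 68.8% of all genes tested, 36.1% higher and 32.7% lower, and the median of the 10 was 0.02 beside 0.06. The calls of Klf4 and Klf6 in this comparison were made in all 16 alternatives.

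**Figure D3:**
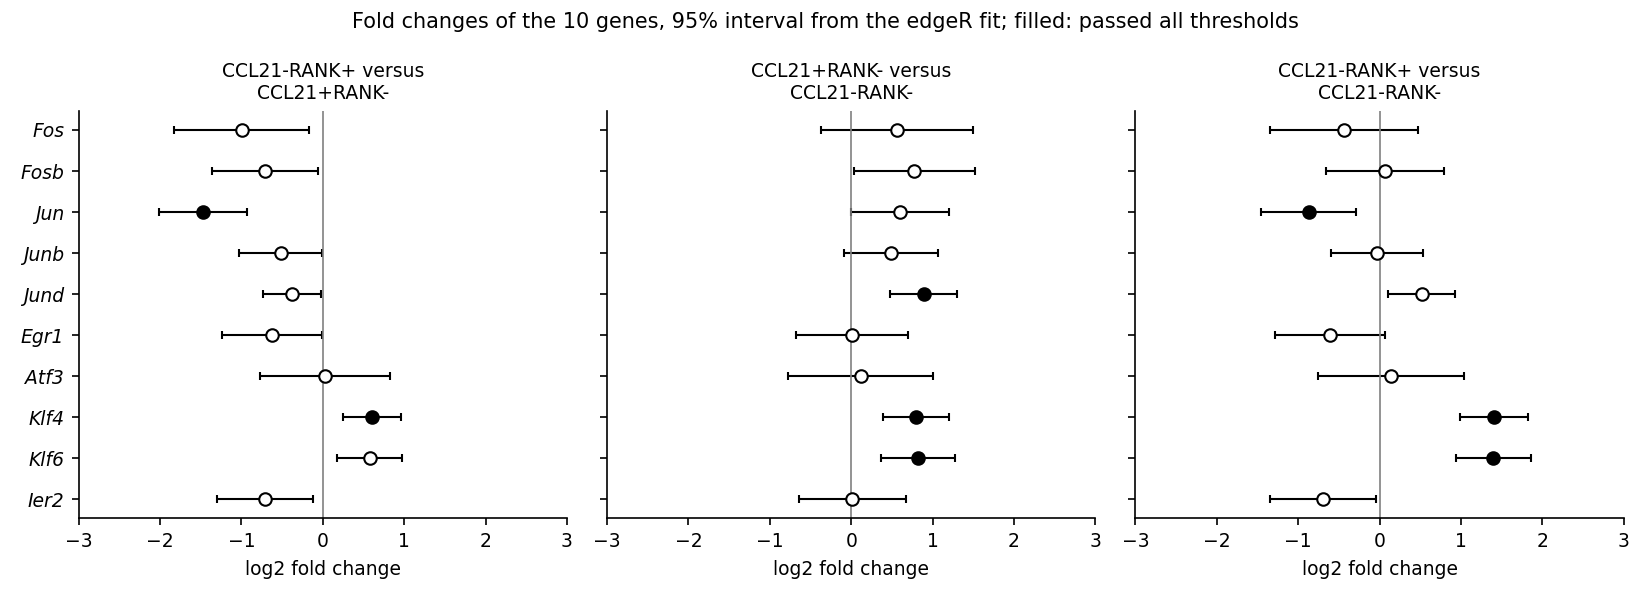
Log2 fold change (horizontal axis) of each of the 10 genes in the 3 comparisons, with its 95% interval from the edgeR fit, not adjusted for multiple testing, as bars. Filled points passed all thresholds, which were Jun and Klf4 in the left panel, Jund, Klf4 and Klf6 in the middle and Jun, Klf4 and Klf6 on the right.

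The calls of the first comparison depended on the block and on single libraries. The block was also extended to all 8 libraries, which ties the CCL21-RANK- numbers, whose pairing could not be settled. That extended fit called 5 of the 10 genes, all but Fosb of the 6 above. It called 30.8% of all genes tested, 15.4% higher and 15.5% lower. Without CCL21+RANK- replicate 3, 6 genes were called, all lower in CCL21-RANK+ cells: Fos (log2 fold change -1.38, edgeR adjusted p = 0.00523), Jun, Junb, Jund, Egr1 and Ier2, and the call of Klf4 was lost. Of all genes tested in that fit, 30.0% were called, 14.8% higher and 15.2% lower. That library was picked for its low values of these genes, and leaving it out raises their CCL21+RANK- means. No conclusion is drawn from these calls, and CCL21-RANK+ replicate 3, with 9 of the 10 genes below their mean, was kept. Without CCL21-RANK+ replicate 2, Fos, Fosb and Jun were called lower and Klf4 higher, and without CCL21+RANK- replicate 2 or CCL21-RANK+ replicate 1 Jun alone was called.

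The spread between replicates exceeded that of the median expressed gene for all 10 genes. Of the 12330 expressed genes, the median SD within populations was 0.18 on the log2 CPM scale. It was 0.74 for Fos, at the 95.4th percentile, 0.64 for Atf3, 0.53 for Fosb and Egr1, 0.50 for Ier2, 0.45 for Jun and 0.42 for Junb, and 0.28, 0.31 and 0.25 for Jund, Klf6 and Klf4. Klf4, at the 67.7th percentile, was the steadiest of the 10, and 5 genes, Fos, Atf3, Fosb, Egr1 and Ier2, were at the 90.1st percentile or above. In CCL21+RANK- replicate 3 all 10 genes were below their population mean, by 0.62 on average, from 0.16 for Klf4 to 1.13 for Fos. In replicate 1 of that population all 10 were above it, by 0.36 on average, in replicate 2 the count was 8 above, with a mean of 0.25, and in CCL21-RANK+ replicate 3 the count was 9 below, with a mean of -0.24. Egr1, Ier2 and Junb were the most divided genes between the CCL21-RANK- libraries, each 0.45 to 0.51 above their mean in replicate 2.

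**Figure D4:**
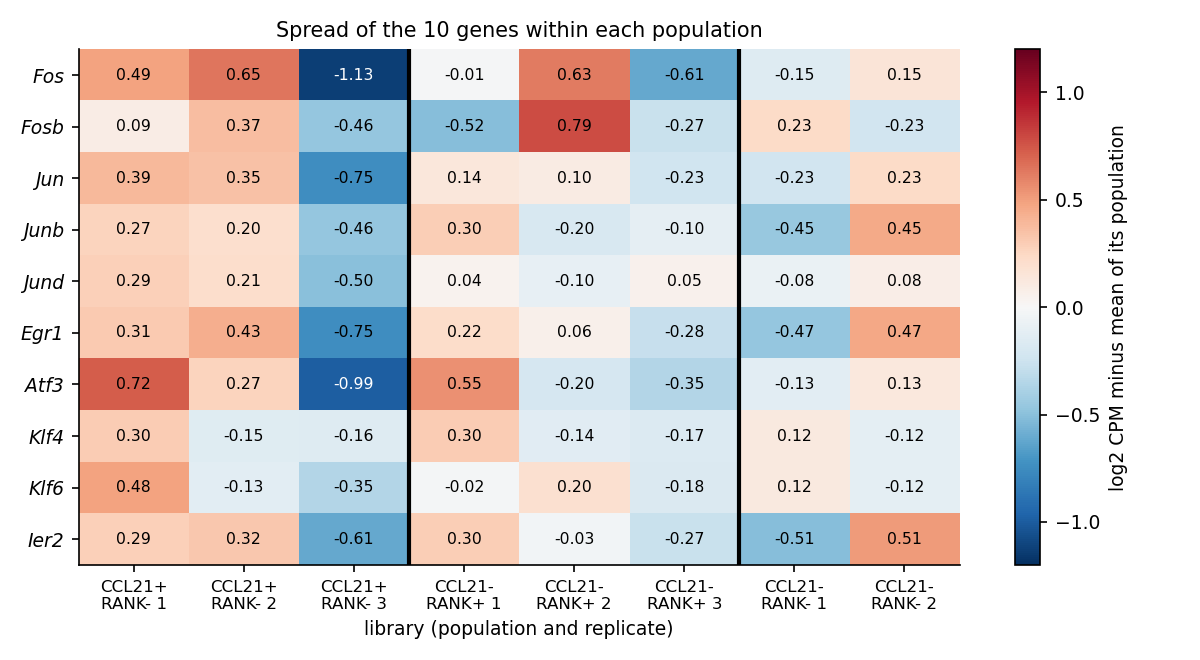
Log2 CPM of each of the 10 genes minus the mean of its population, in each library (columns, with black lines between populations). The column of CCL21+RANK- replicate 3 is below 0 for all 10 genes and lowest for Fos at -1.13, while that of replicate 1 is above 0 for all 10.

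Other measures were set beside these deviations, and some followed them in part. The heat shock genes Hspa1a and Hspa1b, named here after their values were seen, encode inducible Hsp70. Hspa1a was at 107, 45.4 and 18.4 RPKM in CCL21+RANK- cells, 59.3, 19.4 and 12.6 RPKM in CCL21-RANK+ cells and 10.4 and 10.01 RPKM in CCL21-RANK- cells, lowest in replicate 3 of both reporter-positive populations. Hspa1b was at 124, 69.8 and 39.7 RPKM in CCL21+RANK- cells, 72.6, 33.7 and 24.3 RPKM in CCL21-RANK+ cells and 31.5 and 28.7 RPKM in CCL21-RANK- cells, with the same order of replicates. They are 2 of 12 heat shock genes, which averaged 0.21, 0.03 and -0.24 around their population mean in CCL21+RANK- replicates 1, 2 and 3. Hspd1 and Hspe1 went the other way, at -0.12 and -0.30 in replicate 1 and 0.19 and 0.29 in replicate 3. The 22 other immediate early genes averaged 0.56, -0.10 and -0.46 around their population mean in CCL21+RANK- replicates 1, 2 and 3, beside 0.04, 0.03 and -0.07 over all genes tested. In replicate 2, 7 of the 22 were above their mean, where 8 of the 10 genes were. Parathyroid genes, led by Chga and all 4 called higher in CCL21+RANK- than in both other populations, summed to 7122, 1750 and 1955 RPKM in the CCL21+RANK- libraries, with a highest sum of 24.9 RPKM elsewhere. Of all genes tested, 15.4% were called higher in CCL21+RANK- than CCL21-RANK+ cells and 4.35% higher than in CCL21-RANK- cells. The mean deviations of the parathyroid genes, 1.07, -0.55 and -0.53, set replicate 1 apart and not replicate 3. Fibroblast, endothelial and myeloid markers averaged -0.58, -0.82 and -0.43 in CCL21+RANK- replicate 3, with 0 above their mean. Thymocyte markers averaged -0.31 there, and B cell and erythroid markers went the other way, at 0.51 and 0.55. In CCL21-RANK+ replicate 3 the endothelial markers averaged -1.10. The noncoding gene Gm26917 took 12.7%, 11.8% and 7.52% of the CCL21+RANK- counts, 15.8%, 19.4% and 13.1% of the CCL21-RANK+ counts and 17.3% and 6.89% of the CCL21-RANK- counts, where the library with the smaller share had the higher mean deviation of the 10 genes. Their part in the values of the 10 genes was not tested.

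Transcripts that mark other cell types were measured beside the 10 genes, although the CD45-EpCAM+ gate is set to leave out blood cells and nonepithelial stroma. Of 6 such lists, 4 had higher sums in every CCL21-RANK+ library than in any other library, and these were the libraries in which Jun was low and Klf4 and Klf6 were high. The counts of called markers below stand beside 15.4% of all genes tested called in each direction in CCL21-RANK+ cells against CCL21+RANK- cells. The 6 myeloid markers, led by Lyz2, summed to 61.1, 19.0 and 23.0 RPKM in CCL21-RANK+ cells and to at most 1.06 RPKM in any other library, with 5 called higher than in CCL21+RANK- cells. The 7 fibroblast markers, led by Col1a1, summed to 52.7, 27.2 and 33.0 RPKM and to at most 4.03 RPKM elsewhere, with 5 called higher, whereas Pdgfra, at no more than 0.262 RPKM in any library, was 3.17-fold lower and below the RPKM threshold (edgeR adjusted p = 0.0283). The thymocyte markers, led by Rag1, summed to 22.5, 10.1 and 18.8 RPKM in CCL21-RANK+ cells, 12.6, 5.37 and 7.22 RPKM in CCL21+RANK- cells and 3.91 and 3.45 RPKM in CCL21-RANK- cells, with 2 of 10 called higher in the first comparison. The 4 B cell markers, led by Cd79b, summed to 9.89, 4.78 and 5.35 RPKM in CCL21-RANK+ cells and at most 0.902 RPKM elsewhere, and the 6 endothelial markers, led by Tek, to 4.25, 2.36 and 1.90 RPKM and at most 0.467 RPKM elsewhere, with 1 of each list called higher. The 5 erythroid markers, led by Hbb-bs, summed to 141, 232 and 238 RPKM in CCL21-RANK+ cells, 5.45, 130 and 44.0 RPKM in CCL21+RANK- cells and 365 and 44.8 RPKM in CCL21-RANK- cells, with 1 called higher. No marker was at 0 in all libraries, but Cd79a was at 0 in all 3 CCL21+RANK- libraries and Adgre1 and Fcer1g in 2 of them. Of 7 thymic epithelial genes, led by Krt18, 6 were called lower and 1 higher in CCL21-RANK+ cells than CCL21+RANK- cells, and of 5 sort and medullary genes, led by Ccl21a, 1 was called lower and 3 higher. The 3 were Tnfrsf11a, Cd80 and Aire, which encodes a regulator of tissue-restricted gene expression in medullary TECs. Aire was at 0.802, 0.807 and 0.631 RPKM in CCL21+RANK- cells, 131, 94.1 and 114 RPKM in CCL21-RANK+ cells and 0.810 and 0.120 RPKM in CCL21-RANK- cells, 138-fold higher in CCL21-RANK+ cells than CCL21+RANK- cells (edgeR adjusted p = 6.67e-06). In bulk libraries, fewer cells of a type and less RNA per cell cannot be told apart, and the part of these transcripts' sources in the values of the 10 genes was not tested.

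The other AP-1 subunits, the possible partners of these proteins, were measured beside them. For the lists of related genes that follow, the background in CCL21-RANK+ cells against CCL21+RANK- cells is the 15.4% of all genes tested called in each direction. It is 14.4% higher and 15.1% lower against CCL21-RANK- cells, and 4.35% higher and 3.66% lower in CCL21+RANK- cells against CCL21-RANK- cells. Of 8 tested, 2 were called higher and 3 lower in CCL21-RANK+ cells than CCL21+RANK- cells, with a median log2 fold change of 0.99, and 2 were called higher and 3 lower against CCL21-RANK- cells. Batf, a leucine zipper protein that pairs with Jun, was at 1.78, 1.27 and 0.968 RPKM in CCL21+RANK- cells, 8.72, 9.80 and 8.55 RPKM in CCL21-RANK+ cells and 0.569 and 0.516 RPKM in CCL21-RANK- cells. It was 6.18-fold higher in CCL21-RANK+ cells than CCL21+RANK- cells (log2 fold change 2.63 ± 0.29, edgeR adjusted p = 5.15e-05) and also higher in CCL21+RANK- cells than CCL21-RANK- cells (2.47-fold, adjusted p = 0.0327). Jdp2, a Jun partner that represses AP-1 targets, was at 9.50, 8.59 and 8.89 RPKM in CCL21+RANK- cells, 3.33, 2.09 and 1.58 RPKM in CCL21-RANK+ cells and 5.45 and 6.43 RPKM in CCL21-RANK- cells. It was 4.22-fold lower in CCL21-RANK+ cells than CCL21+RANK- cells (log2 fold change -2.08 ± 0.23, edgeR adjusted p = 5.70e-05). The ratio of Jdp2 to Batf RPKM was 0.382, 0.213 and 0.185 in CCL21-RANK+ cells and between 5.35 and 12.4 in the other 5 libraries.

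Fosl2, the gene of the Fos protein Fra-2, was 2.09-fold higher in CCL21-RANK+ cells than CCL21+RANK- cells (edgeR adjusted p = 0.0152), at 9.13, 4.52 and 5.43 against 4.15, 1.98 and 2.18 RPKM. Atf2 and Atf7, which pair with Jun on the TGACATCA and TGACGTCA letters, were 1.68-fold and 1.65-fold lower (edgeR adjusted p = 0.000398 and 0.00107), and both were also called lower than in CCL21-RANK- cells. Batf2 did not exceed 0.485 RPKM, and Batf3 was at 1.34, 0.737 and 0.571 RPKM in CCL21-RANK+ cells and at most 0.157 RPKM elsewhere. Fosl1 was at 0.420, 0.171 and 0.205 RPKM in CCL21+RANK- cells, 0.678, 0.373 and 0.598 RPKM in CCL21-RANK+ cells and 0.802 and 1.26 RPKM in CCL21-RANK- cells and was called lower in CCL21+RANK- cells than CCL21-RANK- cells (edgeR adjusted p = 0.0458).

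**Figure D5:**
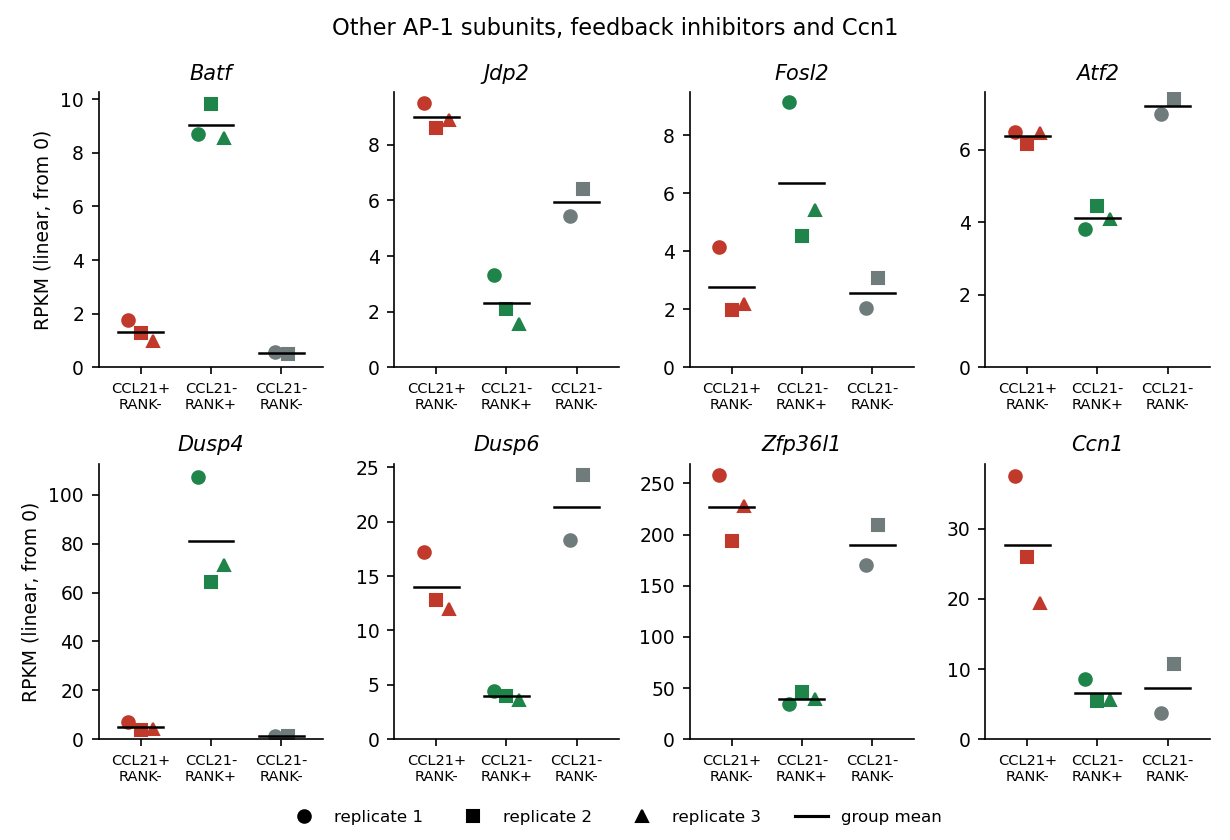
RPKM (linear axes from 0, 1 panel per gene) of 4 other AP-1 subunits, 3 feedback inhibitors and Ccn1 in each library, with the population on the horizontal axis and a line at the group mean. Batf and Dusp4 were higher in every CCL21-RANK+ library than in any other, and Jdp2, Atf2, Dusp6 and Zfp36l1 were lower in them.

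Of 22 other immediate early genes, 7 were called higher in CCL21-RANK+ cells than CCL21+RANK- cells and 5 lower, with a median log2 fold change of 0.53. The 7 included Arc (10.3-fold, edgeR adjusted p = 0.00139) and the orphan nuclear receptor gene Nr4a3 (9.04-fold, adjusted p = 0.000892), both below 8 RPKM. The 5 included the survival gene Ier3 (5.45-fold, adjusted p = 0.0136) and Ccn1, a matrix protein gene driven by SRF and YAP (4.66-fold, adjusted p = 0.000689). In CCL21+RANK- cells against CCL21-RANK- cells 1 of the 22 was called higher, Ccn1, and 1 lower, and in CCL21-RANK+ cells against CCL21-RANK- cells 7 were called higher and 5 lower.

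Of 18 feedback inhibitors, which shut off MAP kinases, growth factor signals or short-lived mRNAs, 6 were called higher and 8 lower in CCL21-RANK+ cells than CCL21+RANK- cells, with a median log2 fold change of -0.03. Against CCL21-RANK- cells, 3 were called higher and 8 lower in CCL21-RANK+ cells and 1 higher and 4 lower in CCL21+RANK- cells. Dusp4, a phosphatase of nuclear MAP kinases, was at 7.12, 3.71 and 4.26 RPKM in CCL21+RANK- cells, 107, 64.5 and 71.5 RPKM in CCL21-RANK+ cells and 1.24 and 1.26 RPKM in CCL21-RANK- cells and was 14.7-fold higher in CCL21-RANK+ cells than CCL21+RANK- cells (edgeR adjusted p = 2.56e-06). It was also 4.03-fold higher in CCL21+RANK- cells than CCL21-RANK- cells (adjusted p = 0.00252). Dusp2, another nuclear MAP kinase phosphatase, was at 0.351, 0.0977 and 0 RPKM in CCL21+RANK- cells, 4.14, 1.03 and 1.79 RPKM in CCL21-RANK+ cells and 0.118 and 0.0976 RPKM in CCL21-RANK- cells, 13.5-fold higher in the first comparison (edgeR adjusted p = 0.0118). Dusp6, the phosphatase of cytoplasmic ERK, was at 17.3, 12.8 and 12.0 RPKM in CCL21+RANK- cells, 4.45, 4.02 and 3.56 RPKM in CCL21-RANK+ cells and 18.4 and 24.3 RPKM in CCL21-RANK- cells, 3.81-fold lower in the first comparison (edgeR adjusted p = 1.05e-05). Zfp36l1, which binds AU-rich elements and speeds the decay of short-lived mRNAs, was at 258, 194 and 228 RPKM in CCL21+RANK- cells, 33.9, 46.3 and 38.8 RPKM in CCL21-RANK+ cells and 170.0 and 209 RPKM in CCL21-RANK- cells, 6.15-fold lower (edgeR adjusted p = 2.12e-06).

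Of 21 upstream kinases and factors, 1 was called higher and 12 lower in CCL21-RANK+ cells than CCL21+RANK- cells, and the median log2 fold change was -0.66. Against CCL21-RANK- cells, 1 was called higher and 13 lower in CCL21-RANK+ cells, whereas CCL21+RANK- cells against CCL21-RANK- cells gave 1 higher and 0 lower. Map2k3, a kinase of p38, was 2.47-fold lower (edgeR adjusted p = 2.11e-06) and Mapk14, p38 alpha itself, 2.36-fold lower (adjusted p = 9.47e-06) in the first comparison. Elk1, a partner of SRF, was 2.07-fold lower (adjusted p = 0.00102), and Mapk9, which encodes the kinase JNK2, was 2.03-fold lower (adjusted p = 5.67e-05). These are mRNA levels, and kinase activity was not measured.

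Of 10 other Klf genes, 2 were called higher and 3 lower in CCL21-RANK+ cells than CCL21+RANK- cells, with a median log2 fold change of 0.02. Klf15, Klf3 and Klf7 were 14.7-fold, 4.91-fold and 2.37-fold lower (edgeR adjusted p = 4.68e-06, 3.99e-07 and 9.56e-05), and Klf8, at most 1.24 RPKM, was 4.43-fold higher (adjusted p = 0.00347). Of 14 textbook targets of AP-1 and Egr1 tested, 4 were called higher and 3 lower in CCL21-RANK+ cells than CCL21+RANK- cells, with a median of 1.45 on the log2 scale. Among them were Vim, the gene of vimentin, 5.61-fold, Ccnd1, which encodes cyclin D1, 4.95-fold and the matrix protein gene Spp1 6.45-fold higher (edgeR adjusted p = 5.40e-06, 5.54e-05 and 0.00674) and Plau, which encodes urokinase, 5.30-fold lower (adjusted p = 1.08e-05). The median of 1.45 takes in Mmp13, Mmp3, Plaur and Ivl, at 9.54, 6.11, 5.38 and 2.62, none of them called. Of the uncalled genes, Hmox1 and Timp1 went the other way, at -0.52 and -0.0085. Of 12 heat shock genes, 5 were called higher and 1 lower in the same comparison, with a median of 0.39 on the log2 scale. The mitochondrial chaperone genes Hspd1 and Hspe1 were 3.24-fold and 2.503-fold higher (edgeR adjusted p = 1.64e-05 and 4.99e-05), Hsph1 was 2.45-fold higher (adjusted p = 7.09e-06) and the co-chaperone gene Bag3 was 3.52-fold lower (adjusted p = 1.70e-06).

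Levels of the 10 genes were compared per length. The highest mean RPKM in CCL21+RANK- cells was that of Junb at 174 ± 36.9 (SD, n = 3), followed by Jund at 163 ± 37.6, Jun at 152 ± 51.7, Fos at 118 ± 57.4 and Fosb at 95.9 ± 20.2, and each differed from the next by less than its SD. In CCL21-RANK+ cells, Jund at 138 ± 13.8 RPKM and Junb at 134 ± 32.9 RPKM (SD, n = 3) stood first, and the next levels, Fos at 65.4 ± 25.7, Fosb at 63.7 ± 29.9 and Jun at 60.4 ± 9.69, did not differ beyond their spread. In CCL21-RANK- cells Junb led at 127 ± 62.9 RPKM (SD, n = 2), and its SD spanned the means of Jun, Jund, Ier2 and Fos.

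With the 10 genes themselves and predicted genes left out, the 4 genes whose log2 CPM followed the mean scaled level of the 10 immediate early and AP-1 genes most closely over the 8 libraries were Cfap126 (Pearson 0.956), Myl12b (0.934), Mecom (0.926) and Tshz1 (0.923). The points share libraries and populations, and Cfap126 averaged 0.441 RPKM. Of the first 10 genes by Pearson correlation, 2 were among the first 10 by Spearman's rank correlation.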

How the data were processed

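The RNA-sequencing of sorted E17 TECs gave 8 libraries in 3 populations. The table deposited by the authors holds RSEM expected counts for each gene, neither normalized nor filtered. The submitters' processing notes name bcl2fastq 2.20, Trimmomatic, STAR 2.5.1, RSEM 1.3.1 and mm10. The labels name the NEBNext Ultra II Directional kit, whereas the methods name CLC Genomics Workbench and a TruSeq Stranded Total RNA kit, and the strand setting of the counting is not given in the sources used here. RSEM divides reads that match several genes, and 11.7% to 12.9% of the values above 0 per library were not whole (to within 1e-06), none of them those of the 10 genes. All 55450 identifiers matched GENCODE M21 of GRCm38.

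Expected counts were rounded and tested in edgeR 4.0.16 (R 4.3.3) with TMM normalization, the default filter, 1 fit of 3 group means to 8 libraries, the quasi-likelihood test and Benjamini-Hochberg adjustment over 21451 genes. The SE of a log2 fold change came from its quasi-likelihood F statistic. RPKM used the library total and the summed exon length. Totals of 42751858 to 71625319 counts left counting error below the spread between libraries (common biological coefficient of variation, 0.326). No pair of replicate libraries agreed within sampling noise, the chi-square per gene being 78.3 to 278. Tested on simulated data for 21451 genes, the fit recovered 63.5% of 200 genes changed 4-fold, and 6 others passed. The simulation was scored by an adjusted p under 0.05 alone. It changed far fewer genes than were called in the first comparison, so that it does not give the error rate of the calls.

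The members and lists were chosen with earlier results of these data known. Genes of the pathway lists were named as the 4 called with the largest log2 fold change between the reporter-positive populations, marker lists were given by their sums and most abundant gene, and every other AP-1 subunit was named. Of the 10 genes closest in pattern, the first 4 are named, and the others are not reported here. Of the listed symbols, 4 were matched through synonyms. Replicate numbers come from the labels. Deviations of CCL21+RANK- and CCL21-RANK+ libraries of the same number correlated above 0.1 in all 3 pairs over expressed genes, and at 0.126, 0.0485 and 0.0707 over all genes tested. Those numbers were taken to pair the libraries, and those of CCL21-RANK- were not (-0.192 to -0.040), so that blocked values come from a fit of the 6 libraries of these populations, chosen after seeing the data. The block over 8 libraries, planned earlier, also ties the CCL21-RANK- numbers. Alternatives were DESeq2 1.42.0 size factors and Wald test, upper-quartile scaling, 10 or more counts in every library or no filter, the replicate block, the adjusted p alone, a fold over 2, only the libraries compared, no Gm26917 and Gm42418, and leaving out each library. Figures were drawn with matplotlib 3.10.9.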

Additional observations from a re-analysis of the deposited data

How the results depend on the processing

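In CCL21-RANK+ cells against CCL21+RANK- cells, 2 of the 10 genes were called, and 6 with no filter on low counts, 5 with the replicate block, 6 with the replicate block in only the libraries compared, 4 in only the libraries compared, 1 at a fold over 2 and 1 to 6 leaving out each library. The other alternatives gave 3 each, where 30.3% to 30.8% of all genes tested were called with another scaling, the Wald test or no Gm26917 and Gm42418, 38.1% with at least 10 counts in every library and 53.7% by the adjusted p alone. The share was 20.9% with no filter, 30.8% with the block, 33.9% with the block in only the libraries compared, 33.2% in only those libraries without it, 21.8% at a fold over 2 and 28.0% to 31.9% leaving out each library. Between CCL21+RANK- and CCL21-RANK- cells the count of 3 became 5 with the replicate block, which added Fos and Jun. That block ties CCL21-RANK- numbers whose pairing could not be settled. The count was 0 at a fold over 2 and 0 to 4 leaving out each library of the other populations. Of all genes, 5.83% to 12.7% were called over the alternatives that keep the thresholds and both CCL21-RANK- libraries. Between CCL21-RANK+ and CCL21-RANK- cells the count stayed between 2 and 4, with 19.8% to 34.7% of all genes called over the 16 alternatives that keep the thresholds, 20.9% at a fold over 2 and 49.0% by the adjusted p alone, but Jund took the place of Jun with DESeq2 size factors, upper-quartile scaling and at least 10 counts in every library. Over all genes, the 6618, 1720 and 6332 called became 11516, 2453 and 10501 by the adjusted p alone, 1030 at a fold over 2 in the comparison of CCL21+RANK- with CCL21-RANK- cells, and 657 to 2066 leaving out each library in the same comparison. The numbers of CCL21-RANK- libraries pair nothing here, with correlations of -0.061 and -0.192 to CCL21+RANK- and of -0.057 and -0.040 to CCL21-RANK+.

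The signs that turned were those of values near 0. Junb in CCL21-RANK+ against CCL21-RANK- cells, at -0.03, became 0.12 with DESeq2 size factors or its Wald test, 0.10 with upper-quartile scaling, 0.028 with no filter, 0.18 with at least 10 counts in every library, 0.14 with the replicate block, 0.020 without Gm26917 and Gm42418 and -0.42 to 0.49 leaving out each library. Leaving out each library, Atf3 ran from -0.33 to 0.42, -0.28 to 0.47 and -0.18 to 0.36 in the 3 comparisons, Egr1 from -0.39 to 0.54 and Ier2 from -0.41 to 0.62 in CCL21+RANK- against CCL21-RANK- cells, and Fosb from -0.43 to 0.31 in CCL21-RANK+ against CCL21-RANK- cells. Relative to TMM, DESeq2 size factors moved the median of all genes in CCL21-RANK+ against CCL21-RANK- cells from 0.06 to 0.20 and upper-quartile scaling to 0.18. The cause of these changes was not tested. Leaving out a library from a group of 2 leaves a lone sample that is assumed to vary like the other groups.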
